A study of Mus musculus with 4 samples.

Results

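Interferon-stimulated genes and the genes that regulate them were followed in heart ventricles of mice with a conditional knockout of Hnrnpu in striated muscle. They were chosen as a list of 36 symbols named for their known place in the type I interferon response, and a gene entered where its symbol stood in the table of gene values that the authors deposited. In all, 35 of the 36 were found among the table's 36814 rows, each once, and Ifi27 was not analysed here. All 35 are protein coding genes, they lie on 13 chromosomes, and each was tested in the authors' deposited table, which tested 24454 rows in all.

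RNA was sequenced from 2 Hnrnpu mutant and 2 wild type mice at postnatal day 14, with 1 male and 1 female in each group, on a mixed C57BL/6 and 129 S4 background. The mutants carried a conditional Hnrnpu allele and a Ckmm-Cre transgene, in which the promoter of muscle creatine kinase drives Cre recombinase in heart and skeletal muscle, and not in the vessel, connective tissue and blood cells of the ventricle. Atria were removed and the whole ventricles were used. Levels are RPKM (read counts scaled by transcript length and library size), and the table holds 1 value for each group, so no spread between animals can be given for any gene. Nothing in the labels says whether mutants and wild types came from the same litters.

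Hnrnpu itself was listed at 15.2 RPKM in mutant and 32.7 RPKM in wild type ventricles, a difference that did not pass the test of the authors' deposited table (adjusted p = 0.438). The heart muscle genes Actc1 and Tnnt2 were listed at 4530 and 1640 RPKM in mutant and at 2380 and 1840 RPKM in wild type ventricles, so the muscle markers were high in both groups.

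Type I interferons are secreted proteins that signal through a receptor made of Ifnar1 and Ifnar2. The receptor's kinases phosphorylate Stat2 and its relatives, which join Irf9 and bind a DNA element called the interferon-stimulated response element (ISRE) in the promoters of target genes. The products of those targets block viral entry, translation, replication or budding, and some of them, such as Irf7, Ddx58 and Ifih1, are themselves sensors or factors that feed the response. Many of these genes are also expressed at a low level without infection.

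Promoter sequences were searched for the core of the element, and a lack of a match does not show that a gene lacks it. RefSeq promoters (GRCm38.p6, 250 bases before to 50 after a transcription start) were at hand for 30 of the 36 members, as 36 sequences. The core of the ISRE was searched as GAAANNGAA on both strands, overlapping matches included. It was present in 17 of the 30 members (56.7%), against 9.76% of the 27025 genes with a promoter. The gamma-activated site, the element that answers to interferon gamma, was searched as TTCNNNGAA, which reads the same on both strands, and was present in 9 members (30%), against 9.55% of all genes. Oas1a, Ifitm3 and Bst2 held both motifs, with overlapping matches in Ifitm3 and Bst2. The members were listed as known interferon targets, so these shares describe the list.

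Of the 6 promoters printed here, those of Rsad2, Gbp3, Isg15 and Stat2 belong to members with lower RPKM in mutant ventricles and hold the ISRE core, that of Irf1 belongs to such a member and holds the gamma-activated site alone, and that of Ifit2, which also holds that site alone, belongs to the member with the highest mutant to wild type ratio among those above 1 RPKM in both groups. These 6 do not stand for all members. Xaf1 also had a lower value in mutant, and its window held no match to either motif. Gbp2, Ifitm2, Oas1a and Oas3 hold the ISRE core and had ratios above 1. Sequences run 5' to 3' on the gene's strand, and capitals mark matches to either motif.
Rsad2, chr12:26456403-26456702, minus strand: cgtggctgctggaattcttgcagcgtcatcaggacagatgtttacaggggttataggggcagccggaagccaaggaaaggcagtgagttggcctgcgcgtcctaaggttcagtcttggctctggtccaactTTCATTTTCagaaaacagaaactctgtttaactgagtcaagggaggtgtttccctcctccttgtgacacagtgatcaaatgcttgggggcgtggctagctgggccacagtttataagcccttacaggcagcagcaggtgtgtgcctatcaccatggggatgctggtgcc
Gbp3, chr3:142559794-142560093, plus strand: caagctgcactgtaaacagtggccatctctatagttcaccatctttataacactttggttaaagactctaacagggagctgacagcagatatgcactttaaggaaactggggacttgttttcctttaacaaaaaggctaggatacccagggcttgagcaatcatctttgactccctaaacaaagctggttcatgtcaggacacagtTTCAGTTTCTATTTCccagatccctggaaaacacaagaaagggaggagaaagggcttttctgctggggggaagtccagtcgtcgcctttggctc
Isg15, chr4:156200769-156201068, minus strand: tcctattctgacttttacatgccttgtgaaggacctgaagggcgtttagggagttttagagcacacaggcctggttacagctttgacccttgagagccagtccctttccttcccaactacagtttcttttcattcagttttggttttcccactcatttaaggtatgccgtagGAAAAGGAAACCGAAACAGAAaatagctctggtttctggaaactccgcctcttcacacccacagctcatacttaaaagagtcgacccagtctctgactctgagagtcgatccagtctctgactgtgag
Stat2, chr10:128270248-128270547, plus strand: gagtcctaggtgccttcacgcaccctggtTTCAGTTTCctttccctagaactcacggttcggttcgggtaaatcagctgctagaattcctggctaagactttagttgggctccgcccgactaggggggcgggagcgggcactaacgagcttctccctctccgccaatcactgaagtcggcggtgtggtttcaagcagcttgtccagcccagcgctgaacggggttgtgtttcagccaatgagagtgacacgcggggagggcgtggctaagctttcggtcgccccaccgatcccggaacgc
Irf1, chr11:53769764-53770063, plus strand: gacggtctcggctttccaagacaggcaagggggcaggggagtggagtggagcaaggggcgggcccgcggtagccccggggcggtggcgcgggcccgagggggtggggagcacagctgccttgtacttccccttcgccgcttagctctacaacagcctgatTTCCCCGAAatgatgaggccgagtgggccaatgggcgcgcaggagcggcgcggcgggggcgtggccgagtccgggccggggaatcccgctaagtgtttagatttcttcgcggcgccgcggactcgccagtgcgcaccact
Ifit2, chr19:34550444-34550743, plus strand: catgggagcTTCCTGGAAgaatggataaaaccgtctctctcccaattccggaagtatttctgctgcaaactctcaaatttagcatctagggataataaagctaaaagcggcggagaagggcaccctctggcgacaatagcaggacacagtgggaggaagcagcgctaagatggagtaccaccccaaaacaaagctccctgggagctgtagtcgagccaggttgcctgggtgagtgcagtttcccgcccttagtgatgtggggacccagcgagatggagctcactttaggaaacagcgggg

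The Rsad2 promoter holds 1 match of the ISRE core, beginning 119 bases before the start. Isg15 has 3 overlapping matches that begin 78, 72 and 66 bases before the start, and Gbp3 has 2 that begin 44 and 38 bases before it. In Stat2 the match lies farther away, 221 bases before the start. The gamma-activated site of Irf1 begins 90 bases before the start, and that of Ifit2 241 bases before it. For Gbp3, Irf1 and Ifit2 another RefSeq start was also searched and its window held neither motif.

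**Figure D1:**
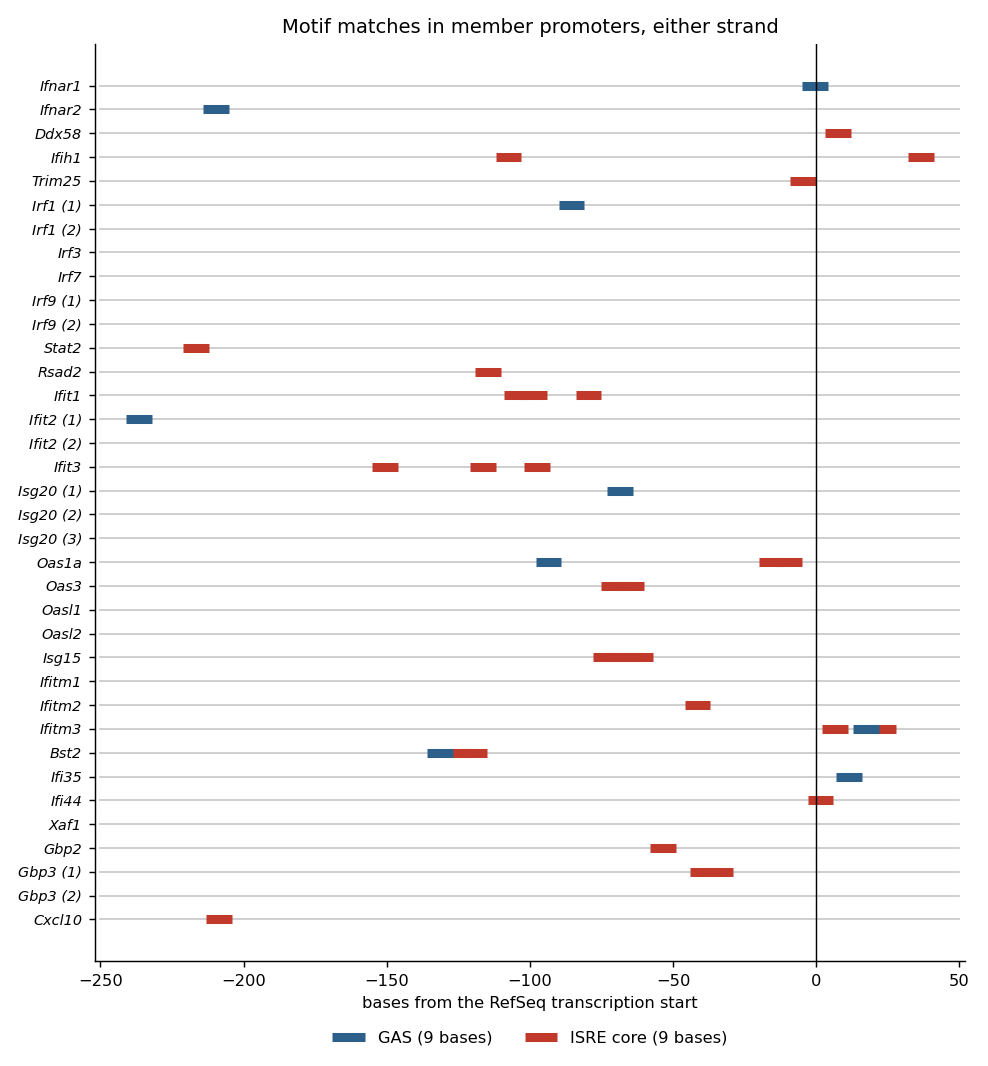
Matches of the ISRE core (red) and of the gamma-activated site (GAS, blue) on either strand of 36 RefSeq promoter windows of 30 members; the horizontal axis is the distance in bases from the transcription start, and numbers in brackets tell apart the starts of 1 gene. The ISRE core lies in 17 members, in overlapping groups of matches in Isg15, Gbp3, Ifit1, Oas1a, Oas3 and Bst2.

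The comparison asked how the members differed between mutant and wild type ventricles. Rsad2, an antiviral enzyme, fell, and was the 1 member of 35 that passed the threshold of an adjusted p below 0.05 in the authors' deposited table, which called 1.48% of all tested rows lower and 3.51% in either direction. No member was called higher by that test, which called 2.03% of all rows higher. At an unadjusted p below 0.05 in the authors' deposited table, Rsad2, Irf1, Stat2, Xaf1 and Gbp3 were lower and Ifit2 was higher, that is 5 and 1 of 35 members against 6.2% and 6.4% of all rows. All 6 had a mean of at least 1 RPKM, a level at which 20 members stood. At that level 1.93% of rows were called lower, 3.35% higher and 5.28% in either direction, and 7.25% were lower and 9.71% higher at the unadjusted threshold. In bulk tissue, fewer cells of a type and less RNA per cell cannot be told apart.

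Most members lay below wild type without passing the test. In 26 of 35 the mutant to wild type ratio was under 1 (74.3%), which held for 47.1% of all tested rows, and 28 of 35 lay below 0 after fold changes were centred on the median of rows with a mean of at least 1 RPKM. The ratio was under 0.5 in 10 of 35 members and above 2 in 3 of 35, against 18% and 22.7% of all tested rows. Among the 20 members at such a mean the ratio was under 1 in 16, against 45.3% of rows at that level. The ratio was under 0.5 in 6 of these 20 (8.48% of rows at that level) and above 2 in Ifit2 and Isg20 alone, 2 of the 20 (11.4% of rows at that level). The median log2 fold change over the 35 members was -0.59, where that of all tested rows above 0 in both groups was -0.03. Over the 20 members with a mean of at least 1 RPKM it was -0.70, beside 0.08 for all rows at that level.

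The members were mostly scarce transcripts. In both groups 12 of 35 were below 0.5 RPKM, 17 were at 1 RPKM or more, and Ifitm2 and Ifitm3 were above 10 RPKM. The size of change that the test could call set a limit on scarce and abundant rows alike. Among rows with a mean from 2 to 5 RPKM, the smallest fall called in the authors' deposited table was 3.08 times and the smallest rise 3.03 times. They were 3.47 and 3.48 times among rows from 0.1 to 1 RPKM, and 3.35 and 3.05 times among rows from 20 to 100 RPKM. No change by a factor under 3 was called at these levels, so the lack of a call does not show that a member was unchanged.

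The plot of levels shows both values of each member.

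**Figure D2:**
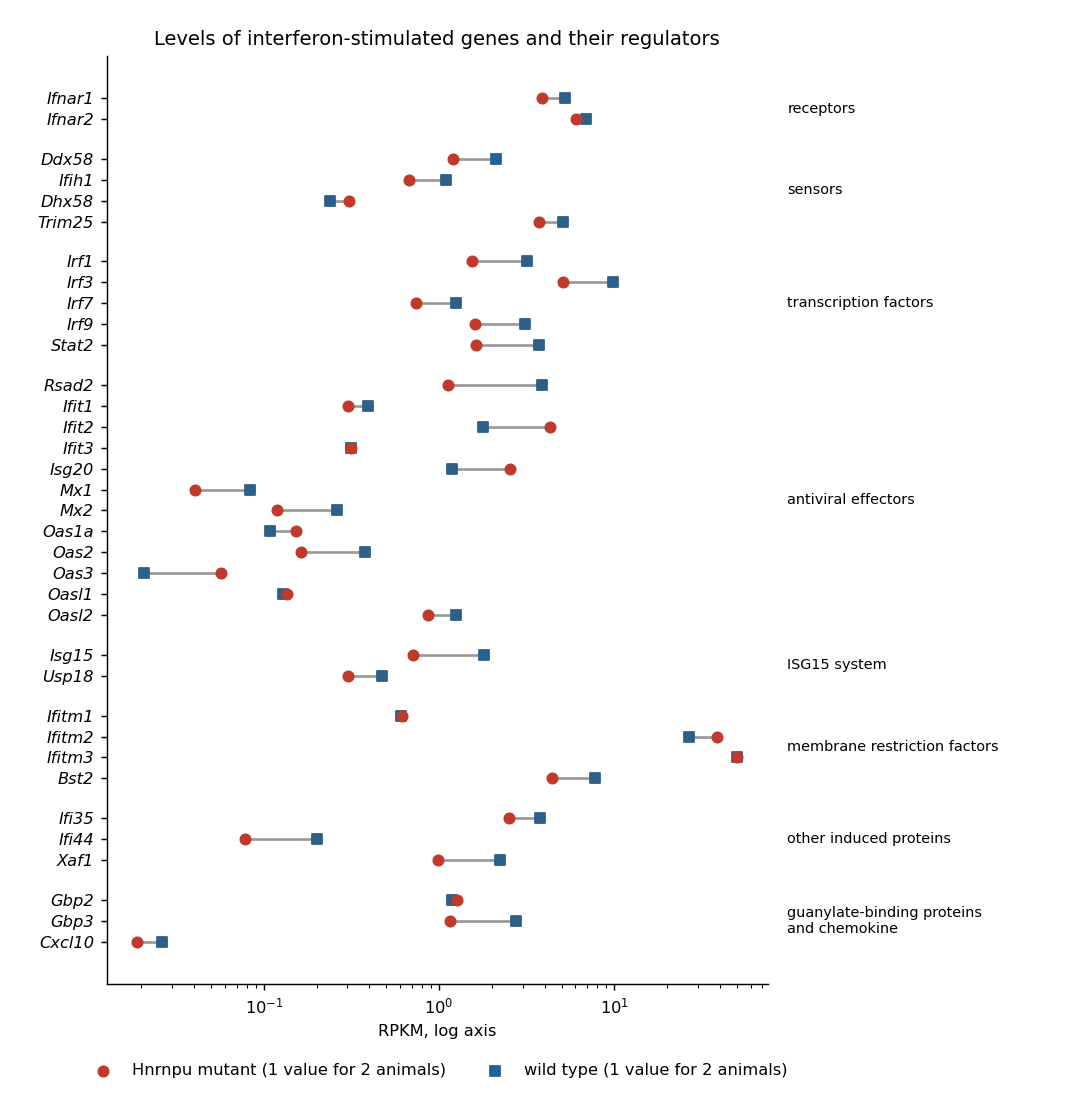
RPKM of the 35 members on a log axis, in Hnrnpu mutant (red circles) and wild type ventricles (blue squares), 1 authors' value for each group of 2 animals, with a grey line between the values of 1 gene. Ifitm3 and Ifitm2 stand highest, at 49.8 and 38.7 RPKM in mutant, and all 5 transcription factors have the mutant circle left of the wild type square.

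The interferon receptor chains, which are needed to sense type I interferon, had ratios of 0.735 and 0.878 in the authors' deposited table, without a call. Ifnar1 was listed at 3.86 RPKM in mutant and 5.26 RPKM in wild type ventricles (log2 fold change -0.44 and adjusted p = 0.926 in the authors' deposited table). Ifnar2 was listed at 6.03 RPKM in mutant and 6.86 RPKM in wild type ventricles, a log2 fold change of -0.19 in the authors' deposited table (adjusted p = 1). An approximate 95% interval, taken from the error that the deposited p-value implies, ran from -1.45 to 0.56 for Ifnar1 and from -1.13 to 0.76 for Ifnar2 on the log2 scale.

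The ligands were at or near 0. Of 20 interferon genes 19 were in the table, and 14 of these were listed at 0 in both groups, among them Ifnb1 and Ifng. Ifna4 was listed at 0.0139 RPKM in mutant and 0.0265 RPKM in wild type ventricles, and Ifna7 at 0.0156 RPKM in mutant and 0.0297 RPKM in wild type ventricles, the highest value of any ligand. Ifna11, Ifna12 and Ifna13 were listed between 0.0101 and 0.0113 RPKM in mutant and at 0 in wild type ventricles. By the read estimate given below, each of these 5 rested on about 1 read in mutant. Ifna4 and Ifna7 also rested on about 1 read in wild type, where the estimated depth was lower, so their ratios measure no difference. None of the 5 ligands tested had an unadjusted p below 0.05 in the authors' deposited table.

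The cytosolic RNA sensors were listed below wild type for both signalling receptors and not for the third. Ddx58, which codes for RIG-I, was at 1.20 RPKM in mutant and 2.12 RPKM in wild type ventricles, and Ifih1, which codes for MDA5, at 0.669 RPKM in mutant and 1.10 RPKM in wild type ventricles. Dhx58, their relative without signalling domains, was at 0.305 RPKM in mutant and 0.238 RPKM in wild type ventricles. Trim25, a ubiquitin ligase that acts on RIG-I, was at 3.70 RPKM in mutant and 5.11 RPKM in wild type ventricles. None passed the test, with adjusted p from 0.560 for Ddx58 to 1 for Dhx58 in the authors' deposited table.

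All 5 transcription factors were listed lower in mutant, with ratios from 0.440 to 0.596 in the authors' deposited table, and none passed the test. Stat2 was at 1.63 RPKM in mutant and 3.71 RPKM in wild type ventricles (chromosome 10, 127707629 to 127729905, mm9), a log2 fold change of -1.18 with p = 0.0185 and adjusted p = 0.228 in the authors' deposited table. Irf9, its DNA-binding partner, was at 1.61 RPKM in mutant and 3.10 RPKM in wild type ventricles (log2 fold change -0.95, adjusted p = 0.426 in the authors' deposited table). Both genes thus had a lower value in mutant, without a call.

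Irf1, a factor induced by interferon gamma, was at 1.54 RPKM in mutant and 3.17 RPKM in wild type ventricles, with a log2 fold change of -1.04 and p = 0.0482 (adjusted p = 0.389) in the authors' deposited table. Irf3, the factor that the sensors activate first, was the most abundant of these, at 5.12 RPKM in mutant and 9.76 RPKM in wild type ventricles (p = 0.0666, adjusted p = 0.457 in the authors' deposited table). Irf7, which amplifies the response, was at 0.742 RPKM in mutant and 1.25 RPKM in wild type ventricles. Over the 5 factors the log2 fold changes ran from -1.18 to -0.75 with a median of -0.95. Of the other interferon regulatory factors, Irf2, Irf5 and Irf8 were at 3.87, 3.10 and 0.938 RPKM in mutant and at 3.73, 3.77 and 1.27 RPKM in wild type ventricles, and 0 of 5 passed the test or had an unadjusted p below 0.05 in the authors' deposited table.

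**Figure D3:**
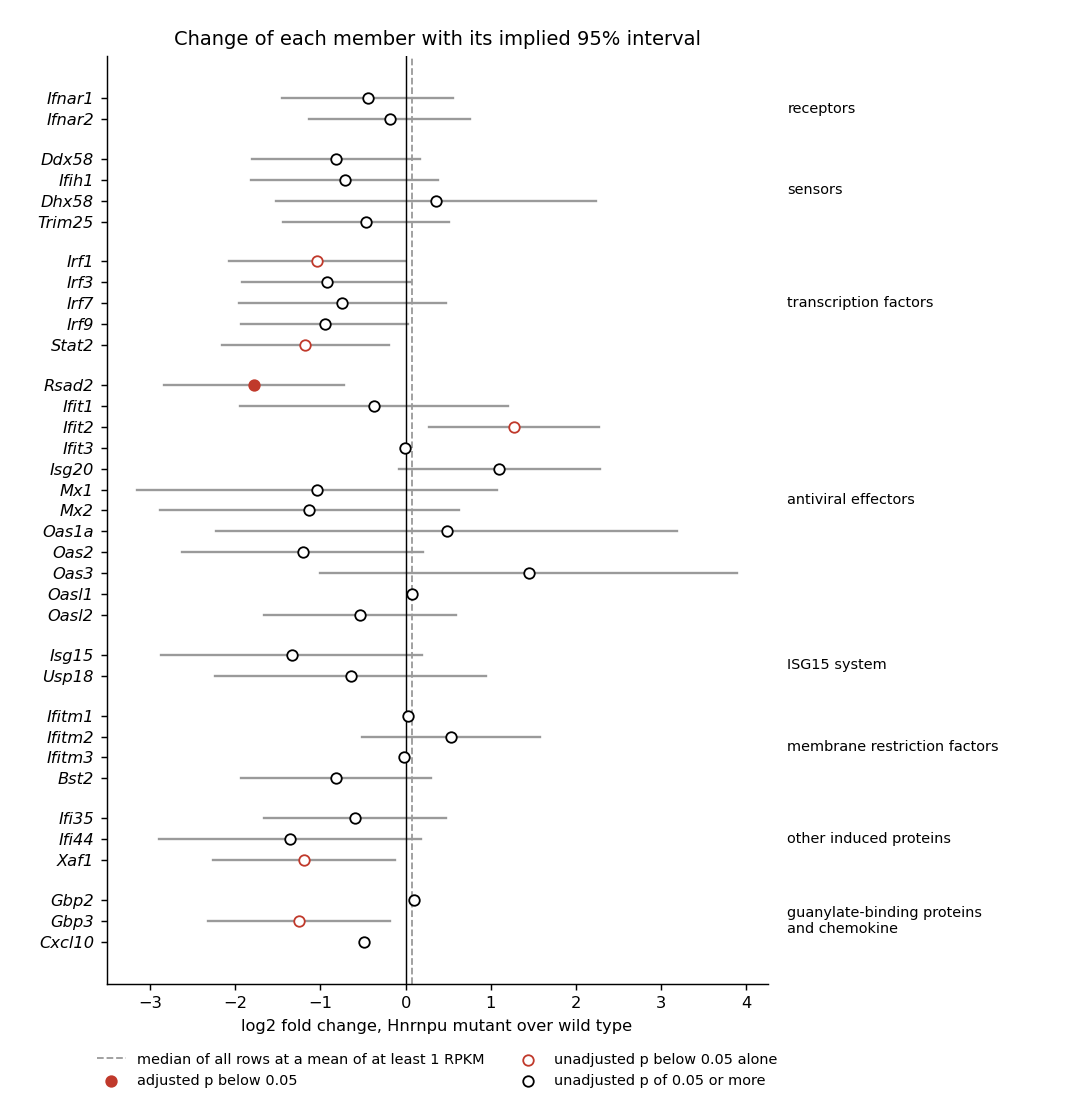
Log2 fold change of mutant over wild type for the 35 members, from the authors' deposited table, with approximate 95% intervals from the error that the deposited p-value implies (none drawn where that p exceeds 0.9). The filled red point is Rsad2, open red points have an unadjusted p below 0.05 alone, and the dashed line is the median of all rows with a mean of at least 1 RPKM, at 0.08.

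The antiviral effectors ran in both directions. Rsad2, which codes for viperin, an enzyme that makes a chain-terminating nucleotide, stood at 1.12 RPKM in mutant and 3.87 RPKM in wild type ventricles. The gene occupies bases 27127618 to 27141317 of chromosome 12 (mm9, minus strand). The value in mutant was 3.44 times lower, with a log2 fold change of -1.78, p = 0.00103 and adjusted p = 0.0340 in the authors' deposited table. The approximate 95% interval ran from -2.84 to -0.72. Cmpk2, a nucleotide kinase that is its neighbour and is also induced by interferon, was at 1.02 RPKM in mutant and 2.16 RPKM in wild type ventricles (p = 0.0571 in the authors' deposited table), and was singled out after its values were seen.

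The Ifit proteins bind foreign RNA ends, and the Ifit genes among the members lie close together on chromosome 19. None passed the adjusted threshold, and Ifit2 alone had an unadjusted p below 0.05 in the authors' deposited table. By the read estimate given below, Ifit3 and Ifit1 rested on about 30 and 56 reads in wild type, which limits the precision of their ratios. Ifit2 was at 4.31 RPKM in mutant and 1.78 RPKM in wild type ventricles, a log2 fold change of 1.27 with p = 0.0132 and adjusted p = 0.185 in the authors' deposited table (approximate 95% interval from 0.27 to 2.27). Its neighbour Ifit3, which begins 7.1 kb away, was at 0.313 RPKM in mutant and 0.315 RPKM in wild type ventricles, and Ifit1, a further 52.1 kb on, at 0.302 RPKM in mutant and 0.392 RPKM in wild type ventricles. Isg20, an exonuclease of RNA, also stood higher, at 2.55 RPKM in mutant and 1.19 RPKM in wild type ventricles (log2 fold change 1.10, p = 0.0668 and adjusted p = 0.458 in the authors' deposited table).

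The 2'-5' oligoadenylate synthetases, which answer double-stranded RNA with a signalling nucleotide, and the Mx GTPases were close to the floor of the data. Oas2 was at 0.163 RPKM in mutant and 0.376 RPKM in wild type ventricles, whereas Oas1a was at 0.152 RPKM in mutant and 0.109 RPKM in wild type ventricles. Oas3 was at 0.0568 RPKM in mutant and 0.0208 RPKM in wild type ventricles. The related gene Oasl2 was at 0.867 RPKM in mutant and 1.25 RPKM in wild type ventricles, and Oasl1, a relative without synthetase activity, at 0.135 RPKM in mutant and 0.128 RPKM in wild type ventricles. Mx1, which is defective in most laboratory strains including C57BL/6, was at 0.0403 RPKM in mutant and 0.0830 RPKM in wild type ventricles, and Mx2 at 0.119 RPKM in mutant and 0.260 RPKM in wild type ventricles. None of these passed the test, the lowest p in the authors' deposited table being 0.0946 for Oas2.

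Isg15, a ubiquitin-like protein that is joined to others during the response, was at 0.710 RPKM in mutant and 1.80 RPKM in wild type ventricles, a log2 fold change of -1.34 with adjusted p = 0.514 in the authors' deposited table. Usp18, which removes Isg15 from its targets and dampens the receptor, was at 0.302 RPKM in mutant and 0.473 RPKM in wild type ventricles. Uba7, the enzyme that activates Isg15, was at 2.03 RPKM in mutant and 5.16 RPKM in wild type ventricles (p = 0.0106, adjusted p = 0.164 in the authors' deposited table). Ube2l6, the enzyme that conjugates Isg15, was at 5.08 RPKM in mutant and 3.36 RPKM in wild type ventricles, and Herc6, its ligase in mice, at 0.346 RPKM in mutant and 0.722 RPKM in wild type ventricles; both were named after their values were seen. Of these 5 genes of the Isg15 system 4 had a lower value in mutant and 1 a higher one, and none passed the test.

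The membrane restriction factors held the most abundant members. Ifitm3, which hinders the fusion of virus and endosome, was at 49.8 RPKM in mutant and 50.4 RPKM in wild type ventricles (adjusted p = 1 in the authors' deposited table). Ifitm2 was at 38.7 RPKM in mutant and 26.7 RPKM in wild type ventricles, and Ifitm1 at 0.617 RPKM in mutant and 0.606 RPKM in wild type ventricles. Bst2, which codes for tetherin, a protein that holds budding virus at the cell surface, was at 4.40 RPKM in mutant and 7.73 RPKM in wild type ventricles (p = 0.153 in the authors' deposited table). None of the 4 passed the test.

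Among the other induced genes, Xaf1, a pro-apoptotic protein, was at 0.983 RPKM in mutant and 2.24 RPKM in wild type ventricles (p = 0.0294, adjusted p = 0.299 in the authors' deposited table). Ifi35 was at 2.5 RPKM in mutant and 3.75 RPKM in wild type ventricles, and Ifi44 at 0.0785 RPKM in mutant and 0.201 RPKM in wild type ventricles. Of the guanylate-binding proteins, GTPases that attack the vacuoles of microbes, Gbp3 was at 1.15 RPKM in mutant and 2.73 RPKM in wild type ventricles (p = 0.0221, adjusted p = 0.253 in the authors' deposited table), while Gbp2, 47.4 kb from it on chromosome 3, was at 1.26 RPKM in mutant and 1.18 RPKM in wild type ventricles. Cxcl10, a chemokine for T cells, was at 0.0188 RPKM in mutant and 0.0264 RPKM in wild type ventricles.

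**Figure D4:**
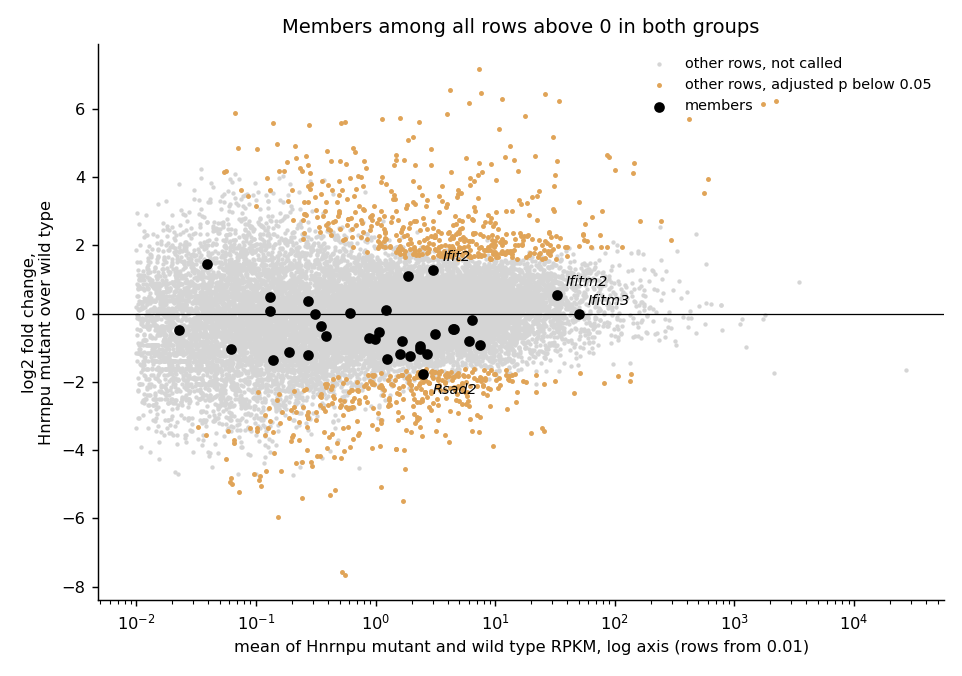
Log2 fold change of mutant over wild type against the mean of both group RPKM values (log axis) for rows above 0 in both groups, from the authors' deposited table. Members (black) lie mostly below 0 at means under 10 RPKM, and Rsad2 is the 1 member within the called rows (orange).

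Members with and without the ISRE core are given side by side. Of the 17 members with an ISRE core in the window 13 had a ratio under 1, with a median log2 fold change of -0.49, and of the 13 members without it 9 had a ratio under 1, with a median of -0.53. The difference was not tested.

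Other genes of the pathway were taken from fixed lists, chosen like the members with earlier results of these data known. Of 136 tested genes in these lists, Cxcl9 and Iigp1 fell and Plscr1 rose in the authors' deposited table (percentages of all rows called are 1.48 lower and 2.03 higher, as above). Neither count exceeds the share of all rows. Cxcl9 and Iigp1 belong to the targets of interferon gamma, a list mostly of GTPases and chemokines that also holds Cd274 and Ido1. In it 20 of 22 genes had a ratio under 1, against 47.1% of all tested rows, and the median log2 fold change was -1.09. Only 5 of the 22 had a mean of at least 1 RPKM, with a median of -1.31, so most of these ratios rest on scarce transcripts. Cxcl9, a chemokine for T cells, was at 0.0113 RPKM in mutant and 0.473 RPKM in wild type ventricles, with a log2 fold change of -5.39 and adjusted p = 6.22e-05 in the authors' deposited table, on about 5 reads in mutant and 77 in wild type. Iigp1, a GTPase that disrupts the vacuoles of parasites, was at 0.876 RPKM in mutant and 3.74 RPKM in wild type ventricles (log2 fold change -2.10, adjusted p = 0.00891 in the authors' deposited table).

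Gbp4, Gbp7 and Gbp9, which are relatives of the members Gbp2 and Gbp3, were at 0.841, 1.60 and 2.38 RPKM in mutant and at 2.23, 3.27 and 5.89 RPKM in wild type ventricles. Their p-values in the authors' deposited table were 0.0112, 0.0451 and 0.0107, and none passed the adjusted threshold. In this list 7 of 22 genes were lower and 0 higher at an unadjusted p below 0.05, against 6.2% and 6.4% of all tested rows.

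Among 45 other interferon-stimulated genes 32 had a ratio under 1, with a median log2 fold change of -0.51. Plscr1, a membrane protein that hinders viral entry, rose to 3.06 RPKM in mutant, against 0.829 RPKM in wild type ventricles (log2 fold change 1.88, adjusted p = 0.0427 in the authors' deposited table). Mov10, an RNA helicase, was at 0.842 RPKM in mutant and 2.36 RPKM in wild type ventricles, and Sp100, a nuclear body protein, at 0.751 RPKM in mutant and 1.71 RPKM in wild type ventricles. Their p-values in the authors' deposited table were 0.00706 and 0.0227, without a call. At an unadjusted p below 0.05, 6 of the 45 were lower and 3 higher, where 6.2% and 6.4% of all tested rows were; the share higher is near that of all rows.

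The remaining lists had medians nearer to 0. Over 20 genes of antigen presentation the median log2 fold change was -0.11, with Psme1, an activator subunit of the proteasome, at 8.67 RPKM in mutant and 20 RPKM in wild type ventricles (p = 0.0220 in the authors' deposited table). Psmb8, Psmb10 and Tap1 were at 1.79, 16.7 and 1.33 RPKM in mutant and at 2.66, 10.5 and 0.955 RPKM in wild type ventricles. Over 21 genes of nucleic acid sensing and its adaptors the median was 0.04. There, Eif2ak2, the RNA-activated kinase PKR, was at 1.34 RPKM in mutant and 2.47 RPKM in wild type ventricles. Rnaseh2c and the kinase gene Tbk1 were at 2.98 and 6.18 RPKM in mutant and at 4.79 and 4.07 RPKM in wild type ventricles. None of these passed the test.

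Among 9 other receptor and JAK-STAT genes the median log2 fold change was -0.07. Ifngr1, a chain of the interferon gamma receptor, was at 20.7 RPKM in mutant and 9.67 RPKM in wild type ventricles, and Il10rb, a receptor chain shared by interferon lambda and interleukin 10, at 4.34 RPKM in mutant and 8.96 RPKM in wild type ventricles. Their p-values in the authors' deposited table were 0.0349 and 0.0409, with adjusted p = 0.330 and 0.360. The kinase gene Tyk2 was at 2.57 RPKM in mutant and 3.97 RPKM in wild type ventricles. Of 9 negative regulators 8 had a ratio above 1, as did 12923 of all 24454 tested rows, and the median of the list was 0.27. The 1 with a ratio under 1 was Socs1, at 0.346 RPKM in mutant and 0.684 RPKM in wild type ventricles. In this list Ptpn11, a phosphatase, was at 27.3 RPKM in mutant and 11.2 RPKM in wild type ventricles (p = 0.0294 in the authors' deposited table). None of the list passed the adjusted threshold. Socs3, Rnf125 and Ptpn2 were at 2.03, 1.71 and 3.56 RPKM in mutant and at 1.22, 1.24 and 2.98 RPKM in wild type ventricles.

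**Figure D5:**
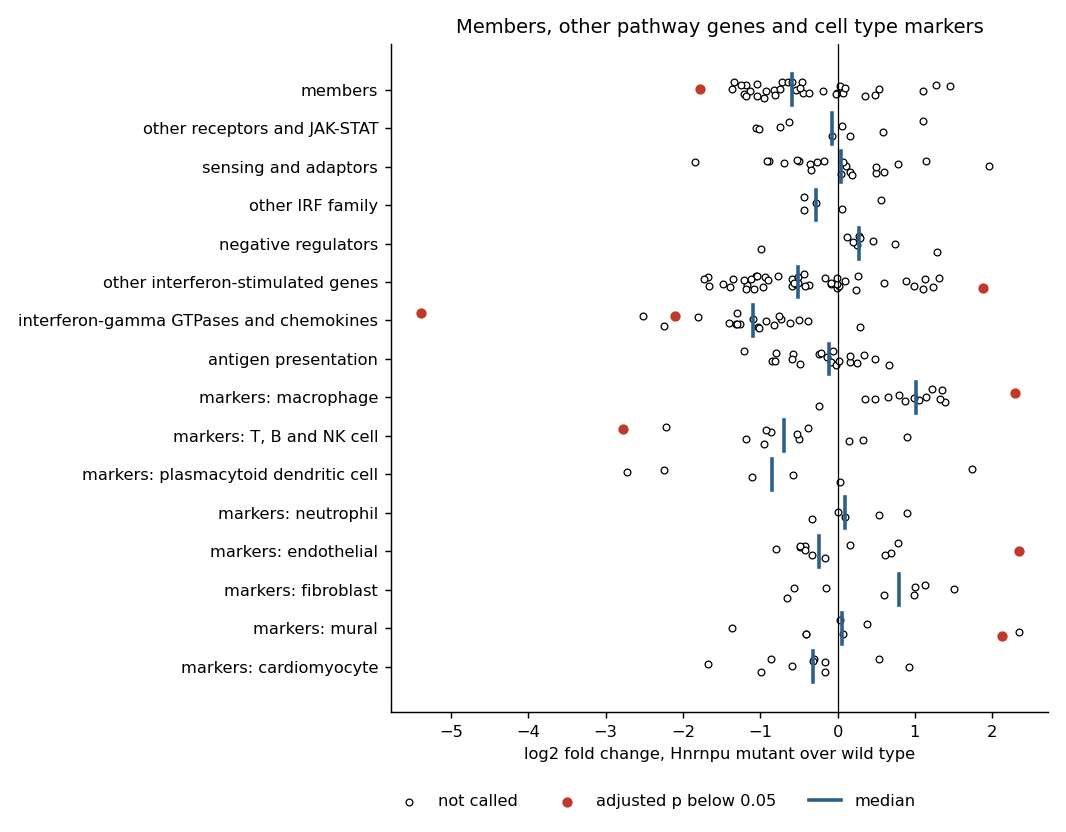
Log2 fold changes of mutant over wild type from the authors' deposited table for the members, for other pathway lists and for cell type markers, 1 point per gene above 0 in both groups, with the median of each list as a blue bar. The medians of the members and of the interferon gamma targets were -0.59 and -1.09, and that of macrophage markers was 1.02; called genes are red.

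Markers of immune cells, which also express many members, moved in different directions. Of 14 macrophage markers 13 had a ratio above 1, and their summed level was 240 RPKM in mutant and 86.6 RPKM in wild type ventricles, with none at 0. Lyz2 rose to 90.5 RPKM in mutant, against 18.4 RPKM in wild type ventricles (adjusted p = 0.00209 in the authors' deposited table), and C1qb was at 42.4 RPKM in mutant and 16.1 RPKM in wild type ventricles. Of 13 markers of T, B and NK cells 9 had a ratio under 1, their sum was 2.38 RPKM in mutant and 4.99 RPKM in wild type ventricles, and Nkg7 was at 0 in wild type. In this list Cd79b was at 0.485 RPKM in mutant and 1.11 RPKM in wild type ventricles. Ptprc, which is not particular to these cells, was at 0.906 RPKM in mutant and 1.31 RPKM in wild type ventricles. The part of these cells in the members' lower values was not tested.

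Plasmacytoid dendritic cells are the main producers of interferon alpha. Their defining marker Siglech was near 0, at 0.0147 RPKM in mutant and 0.00438 RPKM in wild type ventricles, and, like the next genes, was chosen after its values were seen. Ccr9, a chemokine receptor, was at 0.0206 RPKM in mutant and 0.135 RPKM in wild type ventricles (p = 0.0151 in the authors' deposited table). Ly6d was at 0.154 RPKM in mutant and 0.733 RPKM in wild type ventricles (p = 0.0287 in the authors' deposited table). These 2 of the list's 7 genes had an unadjusted p below 0.05, both lower, where 6.2% of all tested rows were lower and 6.4% higher. Of the 7 genes, 4 had a ratio under 1 and 3 a ratio above 1, and over the list the log2 fold changes had a median of -0.84. The high sum of the list, 300 RPKM in mutant and 305 RPKM in wild type, came mostly from Cox6a2, also a muscle gene, at 289 RPKM in mutant and 282 RPKM in wild type ventricles, with Tcf4 at 10.3 RPKM in mutant and 22.2 RPKM in wild type. In that list Klk1 was at 0 in wild type. Of 6 neutrophil markers 5 had a ratio above 1, and the median log2 fold change was 0.10. None had an unadjusted p below 0.05 in the authors' deposited table, and Csf3r, counted among the 5, was at 0.458 RPKM in both groups. The list summed to 7.15 RPKM in mutant and 4.69 RPKM in wild type ventricles. Most of this came from S100a8 and S100a9, at 3.12 and 3.20 RPKM in mutant and at 2.16 and 1.72 RPKM in wild type. Ly6g was at 0 in wild type.

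Among markers of the resident cells, Vwf and Tagln rose. The 12 endothelial markers had a median log2 fold change of -0.24 and summed to 258 RPKM in mutant and 239 RPKM in wild type ventricles, with Eng and Cdh5 at 61.0 and 31.8 RPKM in mutant and at 39.9 and 42.8 RPKM in wild type. Vwf rose to 7.79 RPKM in mutant, against 1.54 RPKM in wild type (adjusted p = 0.00176 in the authors' deposited table). The medians of the fibroblast, mural and cardiomyocyte markers were 0.80, 0.05 and -0.31. Among them Col1a1 and Dcn were at 218 and 250 RPKM in mutant and at 110 and 278 RPKM in wild type, Acta2 and Rgs5 at 802 and 57.9 RPKM in mutant and at 158 and 76.6 RPKM in wild type, and Tagln rose to 42.6 RPKM in mutant, against 9.76 RPKM in wild type (adjusted p = 0.00299 in the authors' deposited table).

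Some member values may hold reads of another gene, since no source used here states whether strand was used or how reads with several matching places were counted. Cxcl10 lies wholly within Art3 on the other strand, and Art3 rose to 53.0 RPKM in mutant, against 11 RPKM in wild type ventricles (adjusted p = 0.00589 in the authors' deposited table). Irf1 shares 907 bases with a row named AL596182.1 on the other strand, listed at 0.780 RPKM in mutant and 1.80 RPKM in wild type. Ifnar2 shares 13288 bases of the same strand with Il10rb, and Dhx58 shares 2817 bases with Gm11547 on the other strand. Further overlaps exist for Irf3, Irf7, Irf9, Ifi35 and Oasl1. The Ifit, Oas, Ifitm, Gbp and Mx genes are families of similar sequence, so their values are uncertain to the extent that reads were shared among them.

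Depth was read from the worth of 1 read in small RNA genes of known length. If the authors scaled by mapped reads and averaged the libraries of a group, the mutant libraries held about 55700000 and 76400000 reads and the wild type libraries about 24900000 and 29200000. This rests on 112 of 145 such genes seen in mutant alone and 77 of 100 seen in wild type alone, and which animal had which depth cannot be read from it. With exonic lengths of a later annotation, Rsad2 then rested on about 642 reads in mutant and 908 in wild type ventricles, and Cxcl10 on about 6 and 3. The median over the 35 members was 525 reads in mutant and 350 in wild type, and 8 members had fewer than 50 reads in wild type, which limits the precision of their ratios.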

How the data were processed

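RNA of heart ventricles was sequenced from 2 Hnrnpu mutant and 2 wild type mice, grouped by the sample titles. The deposited table holds 1 RPKM value for each group made by the authors, per the file headers. Beside it stand the authors' ratio (fold) of mutant over wild type, the log2 of that ratio and p-values before and after adjustment. Bowtie 0.12.9, the build mm9 and DESeq (no version) appear in the submitters' processing notes, with no role for each. Annotation, read counter and strand setting: not given in the sources used here. Counts per animal were assumed in the planned design and were not at hand, so the test is the authors' own, and a gene was called at a deposited adjusted p-value below 0.05.

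Computed here (Python 3.11.15, pandas 2.3.3, scipy 1.17.1) were counts, medians and promoter matches. The mutant RPKM over the wild type RPKM lay within 0.971% of the deposited fold where both groups reached 1 RPKM, and the Benjamini-Hochberg adjustment recomputed over 24454 rows differed from the deposited one by at most 0.593%. Approximate 95% intervals divide the log2 fold change by the normal quantile of the deposited p-value to get an error, and were made only for a p of at most 0.9. Depth came from small RNA genes of 50 to 400 bases seen in 1 group alone, whose deposited RPKM times length clustered at 2 step sizes within 3%. Read numbers used GENCODE vM21 exonic lengths, which may differ from the authors'. The functions were tested on simulated data.

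Named were all members. Of each pathway list, the called genes and the 4 with the smallest p at a mean of at least 1 RPKM were named, and of each marker list the called genes and the 2 with the highest mean RPKM. Other genes were singled out after their values were seen, and some genes that the rule names are not reported here. Members and lists were chosen with earlier results of these data known. Alternatives changed the family of tests, the threshold, the added RPKM, the filter on low values and the scaling. The p-values rest on these 4 samples alone, and how they estimate the spread between animals is not given in the sources used here.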

Additional observations from a re-analysis of the deposited data

How the results depend on the processing

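The single call among the members, Rsad2, was also made when the Benjamini-Hochberg adjustment ran over the 11292 rows with a mean of at least 1 RPKM. No other member was called at a threshold of 0.1 or with all rows of repeated symbols kept. Neither of these settings could have removed the call, since a looser threshold only adds calls and no member's symbol repeats. An unadjusted p below 0.05 would call 6 members. The median log2 fold change of the members, -0.59, was -0.48 with 0.1 RPKM added to both groups and -0.18 with 1 RPKM added, which pulls scarce genes toward 0 by construction. It was -0.70 among the 20 members averaging 1 RPKM or more and -0.67 after centring on the median of rows at that level, 0.08. Of 105 single fold changes recomputed, 103 kept their direction. Adding the same RPKM to both groups cannot reverse a direction, so only the centring could have done so. Centring turned Oasl1 to -0.0056 and Ifitm1 to -0.0565, each by the size of that shift. The 3 calls among pathway genes were 2 when the adjustment ran over rows averaging 1 RPKM or more, which leaves out Cxcl9, and 4 at a threshold of 0.1.

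The authors' deposited table holds 1 value for each group, so leaving out single animals could not be run. No paired analysis was possible because the table holds no value for a single animal. The lack of values per animal and the small size of the groups limit every comparison, and read depth limits the members under 1 RPKM.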

Other observations

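In the list of nucleic acid sensors, genes outside the naming rule were chosen after their values were seen. E330016A19Rik, a RefSeq synonym of Cgas, the cytosolic DNA sensor, was listed at 0.242 RPKM in mutant and 0.863 RPKM in wild type ventricles (p = 0.00602, adjusted p = 0.114 in the authors' deposited table). Tlr7, an endosomal sensor of single-stranded RNA, was listed at 1.01 RPKM in mutant and 0.260 RPKM in wild type ventricles (p = 0.00236, adjusted p = 0.0604 in the authors' deposited table). These were the genes of that list with an unadjusted p below 0.05, 1 lower and 1 higher of 21, where 6.2% of all tested rows were lower and 6.4% higher, so the count does not exceed the share of all rows.

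Further scarce interferon-stimulated genes, also chosen after their values were seen, were Ddx60, a helicase, at 0.182 RPKM in mutant and 0.581 RPKM in wild type ventricles (p = 0.00731, adjusted p = 0.130 in the authors' deposited table), and Slfn9 at 0.321 RPKM in mutant and 1.01 RPKM in wild type ventricles (p = 0.00742, adjusted p = 0.132 in the authors' deposited table). On the other side, Slfn2 was at 3.76 RPKM in mutant and 1.59 RPKM in wild type ventricles (p = 0.0371, adjusted p = 0.342 in the authors' deposited table). Of B cell genes, Ms4a1 was listed at 0.150 RPKM in mutant and 0.701 RPKM in wild type ventricles (p = 0.00415, adjusted p = 0.0892 in the authors' deposited table).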
